A study of Mus musculus with 4 samples.

Results

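The 9 transcription factor genes here, which set or maintain the macrophage lineage, were examined for RNA recovered with IGF2BP2: Spi1, Fli1, Cebpa, Cebpb, Maf, Bach1, Irf8, Runx1 and Zeb2. Their peaks were all entries of the 2 immunoprecipitation peak lists that carried the gene's own identifier and were not marked as antisense. These were 45 of the 15511 peaks of replicate 1 and 65 of the 22570 peaks of replicate 2. A peak is a stretch of a transcript where sequenced fragments pile up, and its tag count is the number of fragments the authors assigned to it.

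The study sequenced RNA bound to IGF2BP2, an RNA-binding protein that recognises N6-methyladenosine (m6A), from lysates of mouse bone marrow-derived macrophages (BMDMs), which are grown from bone marrow progenitors in culture. The 4 samples are 2 IGF2BP2 immunoprecipitates (replicates 1 and 2) and 2 inputs. The design sets immunoprecipitate against input, and the input libraries were not analysed here. The labels name no strain, genotype, age or stimulus, and they do not say if the replicates were independent cultures. The sample labels name an antibody against IGF2BP2, whereas the protocol names an anti-Flag antibody and mentions no tagged construct.

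Without input or expression values, binding of a gene's RNA and high abundance of that RNA cannot be told apart. No test across samples is possible with 2 lists, so all values below are descriptions, and an absent peak does not show that an RNA was unbound. The lists held 189393 and 324456 tags in peaks. Total sequencing depth is unknown, and tags are PCR-amplified reads without molecular identifiers, so the intervals given cover counting error only. Macrophage markers were present: 5 of 9 (Csf1r, Adgre1 and Mrc1 among them) had peaks in both lists, with 2545 and 4374 tags summed over the list. The macrophage markers Lyz2 and Cd14 had none. No marker of T cells (0 of 5), B cells (0 of 4), neutrophils (0 of 6), fibroblasts (0 of 4) or erythroid cells (0 of 3) had peaks in both lists, and their summed tags per list ranged from 0 to 10.

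Macrophages form when a small group of transcription factors act together on the enhancers of myeloid genes. PU.1, the product of Spi1, is an ETS factor that opens these enhancers together with the C/EBP factors and RUNX1, and IRF8 binds DNA beside it to direct progenitors toward the monocyte and dendritic cell lineages. MAF and BACH1 are basic leucine zipper factors of mature macrophages, FLI1 is a further ETS factor of blood progenitors, and ZEB2 is a zinc-finger repressor that keeps tissue macrophages in their identity.

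By tag totals, not corrected for gene length, Zeb2 and Runx1 dominated the group, and most of their tags were labelled intronic. Zeb2 held 738 tags in 18 peaks in replicate 1 and 1459 tags in 22 peaks in replicate 2. Runx1 held 266 tags in 13 peaks and 618 tags in 21 peaks. Both genes together made up 87.5% of the members' 1148 tags in replicate 1 and 85.0% of their 2445 tags in replicate 2. These totals leave out Irf8, which had no peak under its own identifier. Cebpa and Cebpb had no peak in either list.

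Of the 9 genes, 6 (Spi1, Fli1, Maf, Bach1, Runx1 and Zeb2) had a peak in replicate 1, and these 6 also had one in replicate 2. Among 21951 protein-coding genes, 22.0% had a sense peak in replicate 1, 26.7% in replicate 2 and 17.0% in both. Over all 9 genes the median was 28 tags in replicate 1 and 59 in replicate 2, against a median of 0 over all protein-coding genes in either list. Irf8, without a peak under its own identifier, entered this median as 0. A peak position shared by both lists, meaning an overlap of at least 1 base on the same strand, occurred in 5 of the 9 (Fli1, Maf, Bach1, Runx1 and Zeb2), against 9.07% of protein-coding genes. When peaks were placed by their midpoint inside a gene's span instead of by the authors' identifier, Irf8 joined the group and 7 of 9 had peaks in both lists, against 17.7% of protein-coding genes. The genes were chosen as known macrophage factors, so their RNA may be plentiful in these cells, and the part of abundance was not tested.

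**Figure D1:**
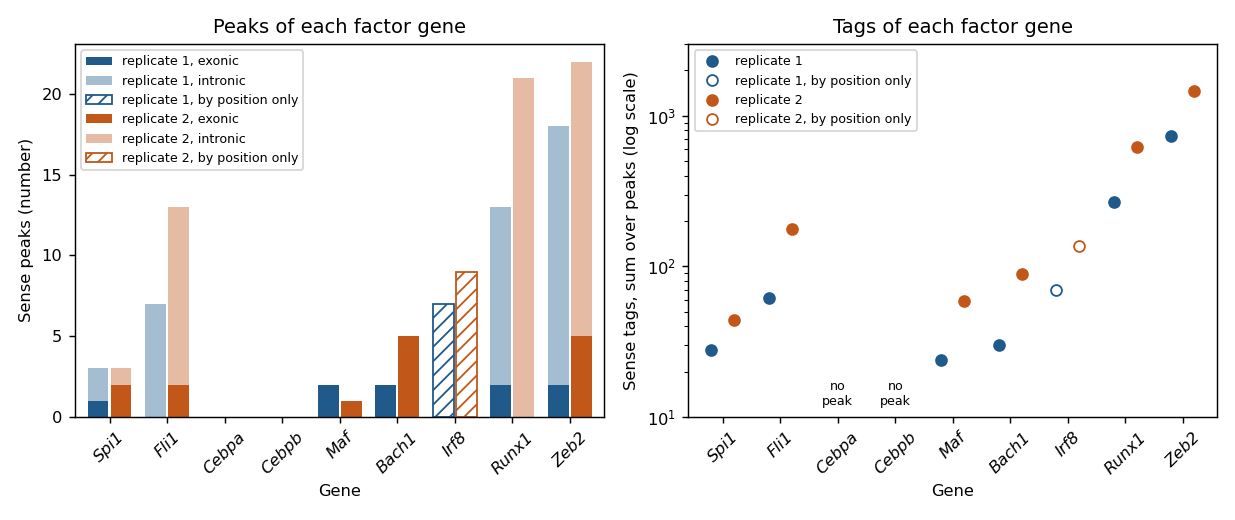
Left, number of sense peaks per gene in replicates 1 and 2, stacked by exonic and intronic label, with Irf8 peaks placed by position only shown hatched; right, tags per gene on a log scale. Zeb2 (738 and 1459 tags) and Runx1 (266 and 618) stand above the other genes in both replicates, and Cebpa and Cebpb have no peak.

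The authors labelled 36 of the 45 member peaks as intronic in replicate 1 (80%, exact Clopper-Pearson 95% interval 65.4 to 90.4) and 50 of 65 in replicate 2 (76.9%, 64.8 to 86.5). Over all sense peaks the intronic share was 37.7% and 40.8%. Peaks of one gene share its transcript and are not independent, and Zeb2 alone supplied 40.0% and 33.9% of the member peaks. Without Zeb2 the intronic share was 74.1% and 76.7%. The genes fell into separate kinds: Zeb2, Runx1 and Fli1 were mainly intronic in both lists, Maf and Bach1 had no intronic peak, and Spi1 was mainly intronic in replicate 1 only. Among all genes with at least 10 peaks, more than 80% of tags were intronic in 21.3% of 155 genes in replicate 1 and 22.4% of 322 genes in replicate 2.

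Of the ETS factors, Spi1 (ENSMUSG00000002111, chr2:91082390-91115756, plus strand, GRCm38) encodes PU.1, the master factor of the myeloid lineage. It held 28 tags in 3 peaks in replicate 1 and 44 tags in 3 peaks in replicate 2. No Spi1 peak of one list overlapped a peak of the other. In replicate 1 the peaks lay in the 5' UTR (91096790-91096970, 8 tags) and in intron 2 (91100932-91101232 with 8 tags, and 91105199-91105588 with 12 tags). These lay from 0.8 to 9.3 kb after the start of the principal transcript. In replicate 2 the peaks lay further downstream, from 17.3 to 19.2 kb. A peak of 11 tags (91113255-91113445) ran exactly from the first to the last base of coding exon 3, one of 11 tags lay in intron 4 (91114689-91114941), and one of 22 tags (91114970-91115656) reached from intron 4 into the last exon and covered 582 bases of it. The intronic share of Spi1 tags was therefore 71.4% in replicate 1 and 25% in replicate 2. Its tag total stood at the 76.6th and 77.7th percentile of genes with a sense peak in the list.

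Fli1 (ENSMUSG00000016087, chr9:32422204-32542861, minus strand) encodes an ETS factor with roles in blood stem cells, megakaryocytes and myeloid cells. It held 62 tags in 7 peaks in replicate 1, all intronic, and 176 tags in 13 peaks in replicate 2, of which 84.1% of tags were intronic. Fli1 peaks were small, from 7 to 11 tags in replicate 1 and from 8 to 24 in replicate 2. Intron 1, which makes up 53.4% of the gene's span, held 5 of 7 peaks with 44 tags and 10 of 13 peaks with 136 tags. Only 1 pair of Fli1 peaks overlapped between the lists (32516352-32516616 with 7 tags and 32516119-32516396 with 10 tags), and only by 45 bases. Intron 1 thus held most Fli1 peaks in both lists, but mostly at different positions within it. Per kb, intron 1 held 0.683 tags in replicate 1, against 0.812 in intron 5. In replicate 2 the values were 2.11 and 0.542, so intron 1 was the denser of these introns in replicate 2 only. Replicate 2 alone had exonic peaks, one at the start of the gene across the 5' UTR and the first intron boundary (32541102-32541405) and one in coding exon 2, 64.9 kb from the start (32476700-32476773, 9 tags).

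Of the C/EBP factors, Cebpa (ENSMUSG00000034957, chr7:35119293-35121928, plus strand), which drives the step to granulocyte and macrophage progenitors, had no peak in either list. Cebpb (ENSMUSG00000056501, chr2:167688915-167690418, plus strand), which acts in mature and activated macrophages, had none either. Both genes are intronless and short, with spans of 2.6 and 1.5 kb, and no peak was found within them by position. The median gene with a sense peak held 11 tags in replicate 1 and 14 in replicate 2. Of 5 further C/EBP factors and partners matched in the annotation, 0 had a peak in both lists, against 17.0% of protein-coding genes. The whole list held 0 and 24 tags. All 24 belonged to Cebpg, named after its values were seen, which had 2 exonic peaks in replicate 2.

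Of the basic leucine zipper factors, Maf (ENSMUSG00000055435, chr8:115682942-115707794, minus strand) encodes c-MAF, which restrains self-renewal in macrophages. It held 24 tags in 2 peaks in replicate 1 and 59 tags in 1 peak in replicate 2, all in exonic sequence. The 59-tag peak (115705347-115706138) ran from the coding sequence into the 3' UTR and contained the whole of a 10-tag peak of replicate 1 (115705707-115706004). The second peak of replicate 1 (115706524-115706827, 14 tags) lay further upstream in the coding sequence and had no partner. The coding bases common to both lists, chr8:115705754-115706004, are the last 251 of the 1110 coding bases of Maf-202. They are printed here because they are where both lists placed Maf RNA, and they encode the basic region and leucine zipper. They are read from the GENCODE M21 transcript (GRCm38) on the minus strand, 5' to 3', with GGAC in capitals, the core in which m6A is often placed.
Maf coding end: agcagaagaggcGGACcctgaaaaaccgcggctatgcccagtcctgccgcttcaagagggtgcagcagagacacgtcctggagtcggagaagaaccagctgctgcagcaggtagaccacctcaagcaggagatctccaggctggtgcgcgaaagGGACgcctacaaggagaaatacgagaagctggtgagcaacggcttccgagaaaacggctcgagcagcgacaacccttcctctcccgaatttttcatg
The stretch held 2 copies of GGAC, and 60.9% of transcript windows of this length hold at least 1.

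Bach1 (ENSMUSG00000025612, chr16:87698945-87733346, plus strand) encodes the haem-sensing repressor of Hmox1 and other antioxidant genes. It held 30 tags in 2 peaks in replicate 1 and 89 tags in 5 peaks in replicate 2, with no intronic peak. Both peaks of replicate 1 lay in the 3' UTR in exon 5, and both had a partner in replicate 2. The first pair was 87729877-87730114 with 11 tags and 87729864-87730128 with 17 tags, and their summits lay 6 bases apart. The second pair was 87730361-87731020 with 19 tags and 87730339-87731028 with 26 tags, with summits 128 bases apart. Each replicate 1 peak lay wholly inside its partner. Replicate 2 added 3 coding peaks of 16, 16 and 14 tags, 1 of which (87722402-87722608) coincided with coding exon 4 from end to end. The 30 bases around each summit of replicate 1 show where the tags were deepest (plus strand, GENCODE M21, GRCm38, chr16:87729963-87729992 and chr16:87730859-87730888), and neither contains GGAC, which 10.5% of windows of 30 bases hold.
Bach1 first summit: ctgtgtcctcctggtagctttctgttgagg
Bach1 second summit: tatgacgtaaaggcgcgtgtaccagtttga

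Irf8 (ENSMUSG00000041515, chr8:120736358-120756694, plus strand) encodes the interferon regulatory factor that partners PU.1. No peak carried its identifier. Peaks within the gene instead carried the identifier of Gm20388, a protein-coding readthrough model of 16 exons that spans 4.435 Mb (chr8:119910841-124345722), and were labelled as intron of it. Of 36 protein-coding genes on the same strand inside this model, 0 had a peak under their own identifier in either list, while 9 and 13 had one by position. Irf8 is therefore described by position.

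By position, Irf8 held 70 tags in 7 peaks in replicate 1 and 137 tags in 9 peaks in replicate 2. Its totals would stand at the 90.0th and 92.8th percentile of genes with a sense peak. Individual peaks held from 6 to 14 tags in replicate 1 and from 6 to 26 in replicate 2. Although labelled intronic, 5 of the 7 and 5 of the 9 touched an annotated Irf8 exon. Peak pairs were shared at exons 3, 4 and 7 and in intron 6. At exon 3 the replicate 1 peak (120743706-120743889, 12 tags) was the exon itself, base for base, and the replicate 2 peak (120743547-120743923, 15 tags) enclosed it. At exon 4 the replicate 2 peak (120745620-120745708, 8 tags) was the exon itself and lay within a 14-tag peak of replicate 1 (120745604-120745708). At exon 5 a replicate 1 peak of 7 tags (120747203-120747308) was also the exon itself, and replicate 2 had no peak there. At exon 7 the pair was 120753255-120753577 with 14 tags and 120753281-120753711 with 11 tags. In intron 6 a 26-tag peak of replicate 2 (120749921-120750669) overlapped 2 peaks of replicate 1 with 6 and 10 tags. How the peak caller treats splice junctions is not stated, and its part in these edges was not tested.

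The 2 exons that a peak matched base for base and that both lists shared follow from GENCODE M21 transcript Irf8-201 (plus strand, GRCm38, GGAC in capitals), exon 3 at chr8:120743706-120743889 and exon 4 at chr8:120745620-120745708. Exon 3 follows the first 174 of 1272 coding bases and so belongs to the amino-terminal part of the protein, where IRF factors bind DNA.
Irf8 exon 3: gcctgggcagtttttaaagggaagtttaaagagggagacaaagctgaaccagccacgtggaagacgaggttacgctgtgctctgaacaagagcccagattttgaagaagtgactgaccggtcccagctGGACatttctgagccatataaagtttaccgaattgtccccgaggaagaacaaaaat
Irf8 exon 4: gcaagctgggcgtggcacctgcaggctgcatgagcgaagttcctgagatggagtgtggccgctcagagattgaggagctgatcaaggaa
Exon 3 held 1 GGAC and exon 4 held 0, where 50.3% and 29.1% of transcript windows of the same lengths hold at least 1.

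**Figure D2:**
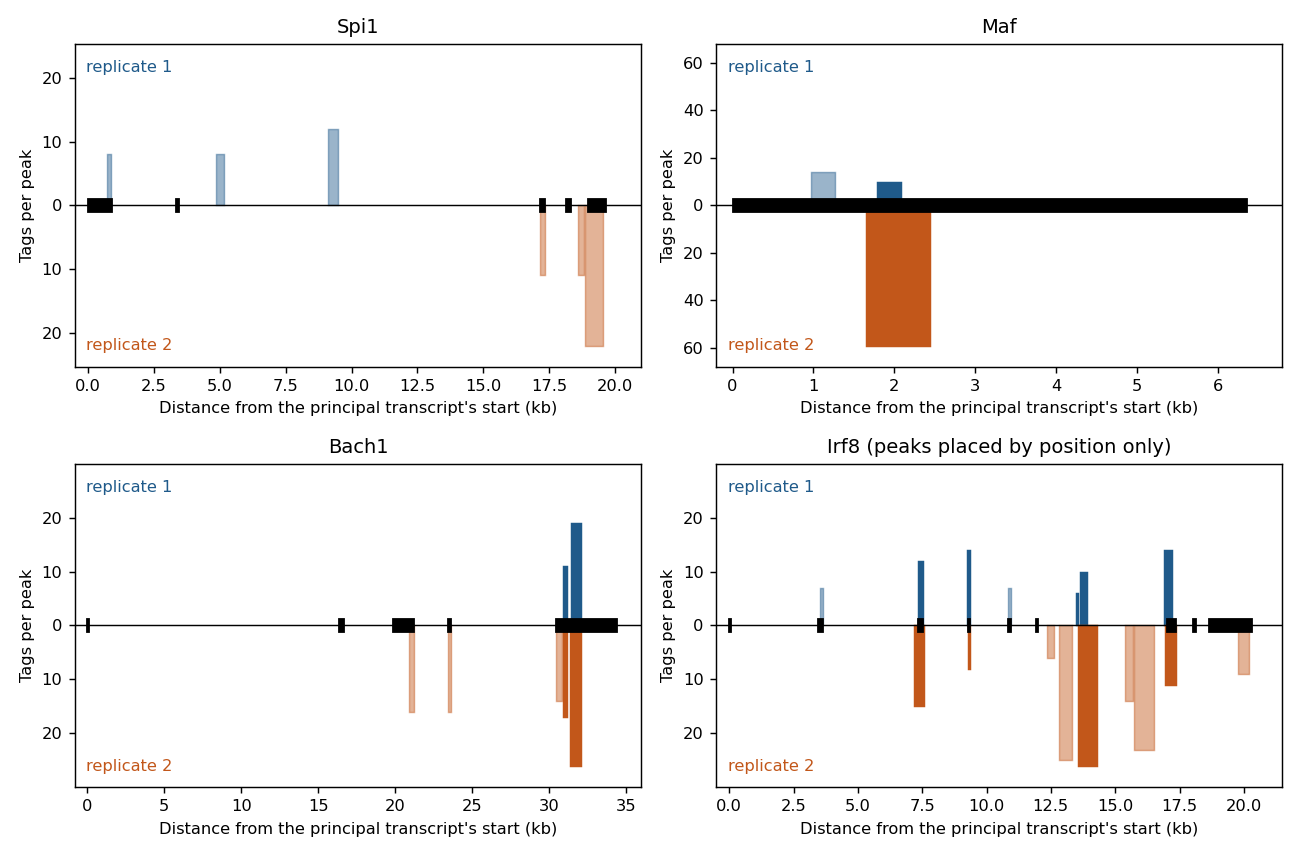
Peaks of Spi1, Maf, Bach1 and Irf8 along the distance from the start of the principal transcript in kb, with replicate 1 upward and replicate 2 downward, bar height in tags, bar width the peak's length, full colour for peaks overlapped in the other list and pale for the rest; black boxes are exons. The Spi1 peaks of replicate 2 sit further downstream than those of replicate 1, the Bach1 pairs coincide in the last exon, and several Irf8 peaks sit on exons.

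Runx1 (ENSMUSG00000022952, chr16:92601466-92826149, minus strand) encodes the core-binding factor needed to form blood stem cells and to open the Spi1 locus. Its 266 and 618 tags ranked it 86th of 4828 and 53rd of 5861 genes with a sense peak. Per kb of gene span it held 1.18 and 2.75 tags, against a median gene's 0.327 and 0.475. Among the members, Zeb2 and, by position, Irf8 (3.44 and 6.74) held more tags per kb of span than Runx1. All 21 Runx1 peaks of replicate 2 were labelled intronic. In replicate 1, 11 of 13 were, with 88.7% of the tags.

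Runx1 is transcribed from a distal and a proximal promoter, and intron 2 of the distal transcript covers 129.9 kb, or 57.8% of the span. This intron held 12 of 13 peaks with 249 tags in replicate 1 and 18 of 21 peaks with 561 tags in replicate 2, which is 93.6% and 90.8% of the gene's tags. The tags thinned with distance from the distal start: the first 25 kb, 11.1% of the span, held 52.6% and 62.6% of them. Between the distal start and the proximal one lay 87.6% and 90.8% of the tags, on 57.3% of the span. Beyond the proximal start there were 2 peaks with 33 tags in replicate 1 and 3 peaks with 57 tags in replicate 2. One of these, in replicate 1 (92696791-92697070, 16 tags), lay in exonic sequence of Runx1-202 and Runx1-206 and was labelled 5' UTR.

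Of the Runx1 peaks, 4 in replicate 1 and 5 in replicate 2 had a partner. The strongest pair stood 6.2 kb after the distal start, at 92819443-92820381 with 48 tags and 92819119-92820347 with 92 tags. Next to the start itself a 33-tag peak (92823805-92824570) met replicate 2 peaks of 66 tags (92823593-92824544) and 78 tags (92824546-92825805), the latter by 25 bases. Further pairs lay at 92801049-92801463 with 19 tags and 92800995-92801480 with 25 tags, and at 92749922-92750343 with 17 tags and 92749922-92750277 with 20 tags. Summits of these last pairs were 10 and 12 bases apart. The other Runx1 peaks of either list had no counterpart at their own position. A replicate 1 peak labelled 3' UTR (92816259-92816557, 14 tags) fell in an exon of the transcript Runx1-207, inside intron 2 of the principal one.

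**Figure D3:**
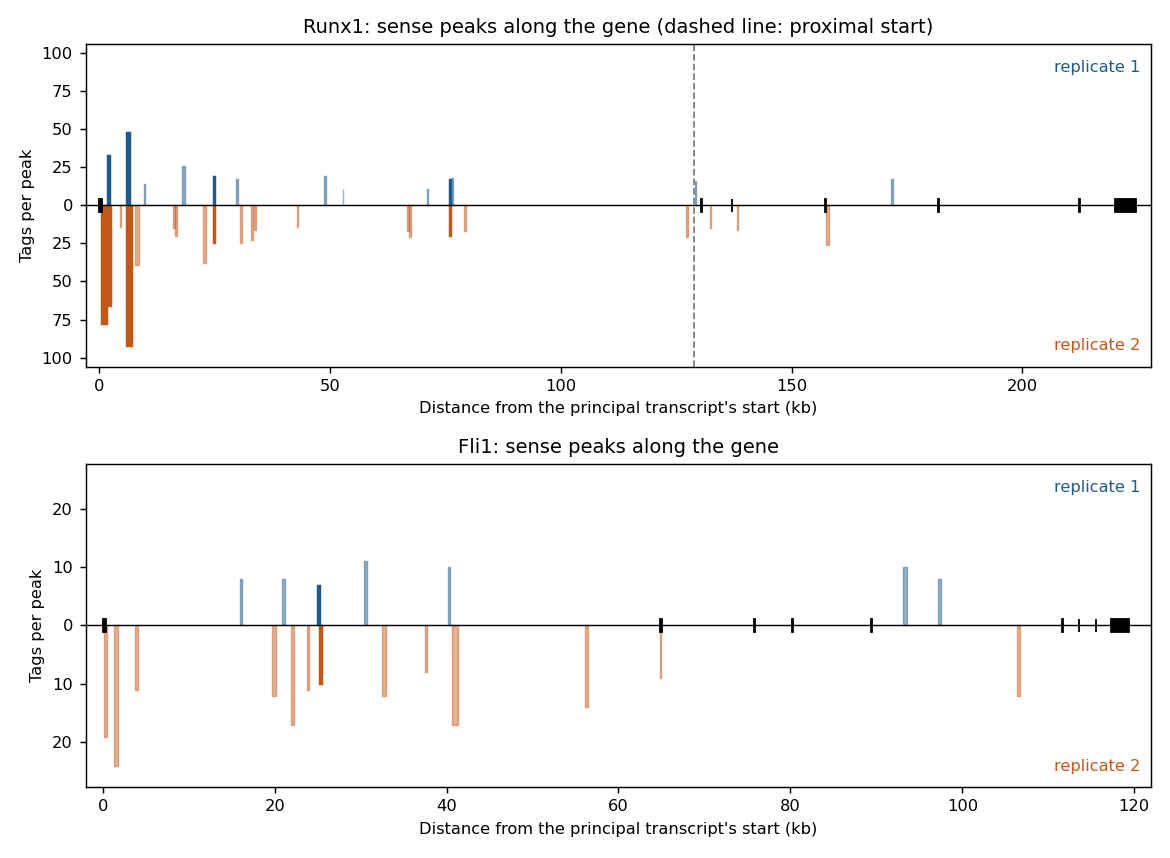
Peaks of Runx1 and Fli1 along the distance from the start of the principal transcript in kb, replicate 1 upward and replicate 2 downward, bar height in tags, with full colour for peaks overlapped in the other list, exons in black and the proximal Runx1 start as a dashed line. Runx1 peaks gather in the first 25 kb and between the distal and proximal starts, and most Fli1 peaks lie in the long intron 1.

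Zeb2 (ENSMUSG00000026872, chr2:44983632-45117395, minus strand) was the most heavily recovered of the 9 genes. It ranked 14th and 12th by tags among genes with a sense peak, and per kb of span it held 5.52 tags in replicate 1 and 10.9 in replicate 2. Peaks covered 8.69% and 12.3% of the gene's span. Intron 3 of Zeb2-212, 86.9 kb long and 65.0% of the span, held 16 of 18 peaks with 691 tags and 18 of 22 peaks with 1320 tags. That was 93.6% and 90.5% of all Zeb2 tags. The first 25 kb after the start held 45.7% and 51.4% of tags on 18.7% of the span, and the first 60 kb held 84.6% and 92.4% on 44.9%.

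Zeb2 had the most repeated positions of the 9 genes, with 12 of 18 replicate 1 peaks overlapping 11 of 22 replicate 2 peaks. The 4 intronic pairs with the most replicate 1 tags were as follows. The strongest peak of replicate 1, 45075054-45076218, held 88 tags and matched a replicate 2 peak of 138 tags at 45075191-45076479. A replicate 2 peak of 152 tags, the strongest of any member (45062660-45064757), covered replicate 1 peaks of 59 tags (45062915-45063884) and 16 tags. Nearer the start, 45100754-45101658 with 65 tags matched 45100530-45101684 with 117 tags, and 45102290-45103287 with 61 tags matched 45102256-45103550 with 117 tags. Some strong peaks were in 1 list only, such as 45089356-45090640 with 79 tags in replicate 1.

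Parts of intron 3 are exons of other annotated Zeb2 transcripts. An 84-tag peak of replicate 2 (45096502-45097126), labelled 3' UTR, lay wholly in exonic sequence of the transcript Zeb2-211. A further replicate 2 peak (45104068-45104734), labelled intron, lay wholly in exons of Zeb2-205, Zeb2-210 and Zeb2-223. Whether these tags came from these transcripts or from unspliced RNA of Zeb2-212 cannot be told apart.

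Zeb2 also had peaks in coding exons. In exon 7 the lists met at 45001558-45001870 with 27 tags and 45001600-45001871 with 39 tags, with summits 4 bases apart. In exon 6 they met at 45002516-45002702 with 20 tags and 45002508-45002749 with 30 tags. Replicate 2 alone had a 28-tag peak over the 5' UTR in exon 2 (45112823-45113205). Tags per kb of annotated exon, all transcripts pooled, were 2.36 and 11.2 for Zeb2 exonic peaks, while its intron 3 held 7.95 and 15.2 tags per kb of intron. An 84-tag replicate 2 peak, exonic by label but inside intron 3, is counted in both of these figures.

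**Figure D4:**
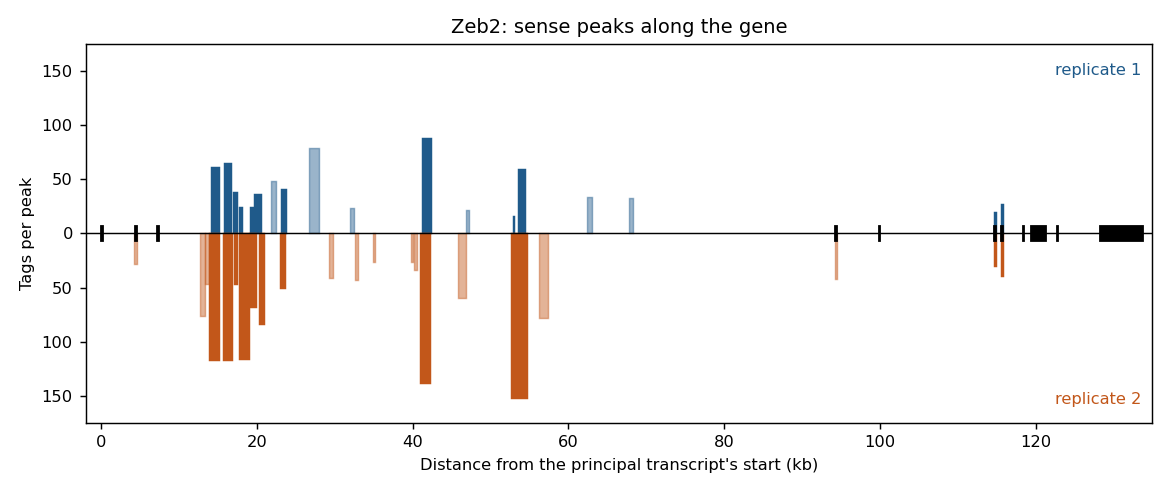
Peaks of Zeb2 along the distance from the start of the principal transcript in kb, replicate 1 upward and replicate 2 downward, bar height in tags, bar width the peak's length, full colour for peaks overlapped in the other list, exons as black boxes. Most bars stand in intron 3 within 60 kb of the start, with 88 tags the highest of replicate 1 and 152 the highest of replicate 2.

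The coding stretches of Zeb2 printed here show the positions that both lists shared in exons 6 and 7 (GENCODE M21 Zeb2-212, GRCm38, minus strand, 5' to 3', GGAC in capitals), at chr2:45002516-45002702 and chr2:45001600-45001814. Exon 7 encodes part of the amino-terminal zinc-finger cluster.
Zeb2 exon 6: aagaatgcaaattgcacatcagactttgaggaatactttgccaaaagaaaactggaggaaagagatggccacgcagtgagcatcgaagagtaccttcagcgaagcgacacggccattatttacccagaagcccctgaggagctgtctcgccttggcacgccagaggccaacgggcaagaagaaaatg
Zeb2 exon 7: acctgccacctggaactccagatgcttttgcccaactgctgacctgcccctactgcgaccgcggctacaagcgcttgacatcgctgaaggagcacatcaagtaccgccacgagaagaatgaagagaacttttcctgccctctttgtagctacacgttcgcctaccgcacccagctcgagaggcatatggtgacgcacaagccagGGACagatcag
Exon 7 held 1 copy of GGAC and exon 6 held 0. The shares of transcript windows of the same lengths with at least 1 were 55.5% and 50.9%.

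Few exonic peaks under the members' own identifiers could be searched for GGAC, and Irf8, with none, did not enter these counts. The searched peaks were longer than those of all genes, with a median of 268 and 265 bases against 146 and 151. Among member peaks lying wholly in 1 exon of the principal transcript, 3 of 6 in replicate 1 (50%) and 5 of 9 in replicate 2 (55.6%) held GGAC on the transcript strand. For all genes the shares were 51.8% of 6475 peaks and 51.6% of 8549. The longer form TGGAC, which contains GGAC, was in 0 of 6 and 2 of 9 member peaks, against 22.8% and 23.3% of all. Per kb of peak sequence the members held 2.14 and 4.18 copies of GGAC, against 4.84 and 4.72. Intronic member peaks were not searched.

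Member peaks were long and well filled compared with their lists. The median member peak was 414 bases with 19 tags in replicate 1 and 425 bases with 24 tags in replicate 2. The median of all peaks was 194 bases with 7 tags and 214 bases with 8 tags. Edges on annotated exon boundaries were found in 1 of 9 exonic member peaks in replicate 1 and 8 of 15 in replicate 2, and in 0 of 36 and 0 of 50 intronic ones. Over all genes 64.2% and 64.8% of exonic peaks and 7.01% and 8.93% of intronic ones had such an edge. For all genes the exon boundaries of any gene were counted, for the members those of the gene itself.

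The 22 overlapping pairs of peaks under the members' own identifiers, 16 of them intronic in both lists, held more tags in replicate 2 in every case. The ratio of replicate 2 to replicate 1 tags in a pair had a median of 1.84 and ran from 1.18 to 9.5, and it exceeded the ratio of the list totals, 1.71, in 12 of 22. Their summits lay a median of 134.5 bases apart, and within 100 bases in 9 pairs. The Irf8 pairs, placed by position and not counted here, were mixed. Replicate 1 held more tags at exon 4 (14 against 8) and exon 7 (14 against 11), and replicate 2 held more at exon 3 and in intron 6. Of the member peaks, 44.4% in replicate 1 and 30.8% in replicate 2 had a partner, against 36.9% and 25.2% of all sense peaks. Zeb2 alone supplied 12 of these 20 peaks in replicate 1 and 11 of 20 in replicate 2, so both member shares lean on this gene. Member peaks were also longer than those of the lists, and the part of length in the overlaps was not tested. Summed per gene, the ratio was 1.57 in Spi1, 1.98 in Zeb2, 2.32 in Runx1, 2.46 in Maf, 2.84 in Fli1 and 2.97 in Bach1. Among 3739 genes with peaks in both lists the median ratio was 1.62, with quartiles of 1.00 and 2.55. Only Bach1 and Fli1 were thus above the upper quartile, and Spi1 was the only member under the median.

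**Figure D5:**
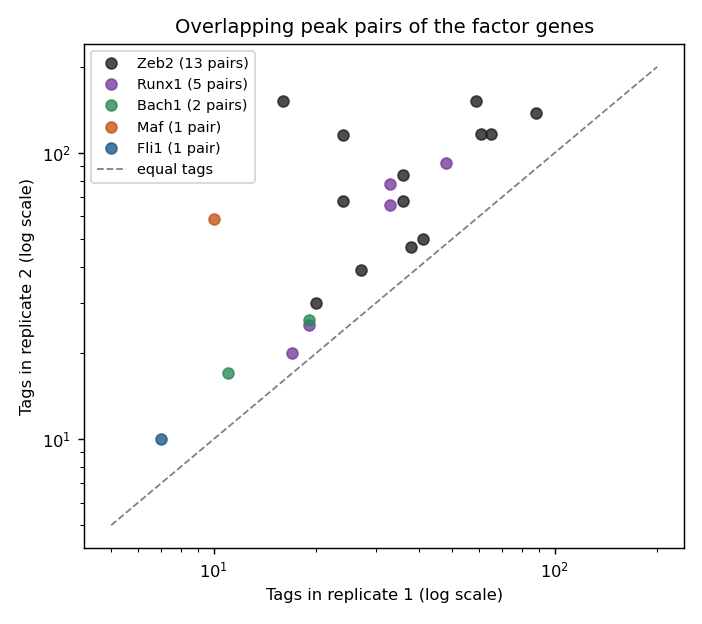
Tags of each overlapping pair of member peaks in replicate 1 (x axis) and replicate 2 (y axis), both on a log scale, coloured by gene, with a dashed line where both are equal. All 22 pairs lie above the line, and the Maf pair (10 and 59 tags) and a Zeb2 pair (16 and 152) lie far from it. Irf8 pairs, placed by position, are not shown, and those at exons 4 and 7 held more tags in replicate 1.

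The families and partners of these factors showed how common such recovery is. Of 83 matched relatives and other myeloid factors in 8 lists, 32 (38.6%) had peaks in both lists and 23 had a shared position. Over all protein-coding genes the shares were 17.0% and 9.07%, the values to set beside each gene list here and below. Among ETS relatives 5 of 13 had peaks in both, led by Etv6 with 129 and 155 tags, Elf4 with 46 and 141, Etv3 with 73 and 86 and Elf2 with 13 and 69. All Etv6 tags were intronic, and exonic tags were 25 and 97 in Elf4, 73 and 55 in Etv3 and 0 and 36 in Elf2. Of the IRF family 4 of 9 did, with Irf2 at 60 and 162 tags and Irf5, the factor of inflammatory macrophages, at 36 and 115. Exonic tags were 0 and 12 in Irf2 and 36 and 29 in Irf5. Irf4 had 6 tags in replicate 1 and 0 in replicate 2. Of the RUNX partners 4 of 7 did, among them Cbfb, the DNA-binding partner of RUNX1, with 12 and 49 tags. Of the MAF, BACH and CNC relatives only Nfe2l1 (76 and 38 tags) and Nfe2l2 (30 and 48 tags), the activator that competes with BACH1, had peaks in both, out of 9. Of the ZEB and E-protein axis 2 of 10 did, Ctbp1, a corepressor of ZEB factors, with 30 and 30 tags and Tcf4 with 6 and 6.

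Of the AP-1 family, which acts with PU.1 at activated enhancers, 6 of 11 had peaks in both lists, led by Atf3 with 207 and 423 tags, of which 31 and 30 were exonic. Of the other myeloid factors 9 of 19 did. Mitf, a factor of macrophages and osteoclasts, held 791 and 1555 tags, all intronic, in 26 peaks in each list, close to the totals of Zeb2. Factors that define other lineages were near 0: none of 16, among them Gata1 and Gata3, had peaks in both lists, and the whole list held 3 tags in each replicate. Of the known myeloid target genes of the factors, 11 of 19 had peaks in both lists and all 11 shared a position. Mrc1 held 1030 and 1880 tags, Csf1r 932 and 1421, Adgre1 421 and 661, and Ctss 210 and 474. Hmox1, the target repressed by BACH1, held 36 and 29 tags and was named after its values were seen.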

How the data were processed

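Peak lists of 2 immunoprecipitation libraries were used. The submitters' processing notes name bcl2fastq, TopHat2 and the build GRCm38, with no settings. The peak caller is not given in the sources used here. Each deposited list gives, per the file headers, tag counts per peak and a maximum height (signal, the deepest coverage within the peak), neither normalised, with a gene identifier and region label assigned by the authors. Peaks were listed for each library separately, and each list's lowest count was 3 tags.

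Deposited starts and summits count from 0: the start plus 1 equalled an annotated exon start for 3981 and 5688 peaks, the start itself for 28 and 41. So 1 was added to both, and all positions are 1-based. Gene identifiers matched GENCODE M21 in 99.7% and 99.8% of cases. Exons, introns and sequences come from M21 principal transcripts. Percentiles are among protein-coding genes with a sense peak. Overlaps of at least 1 base on the same strand were counted in Python 3.11.15 (pandas 2.3.3, numpy 2.4.6, scipy 1.17.1), checked against bedtools 2.31.1 (5403 peaks by both) and tested on simulated data. Figures used matplotlib 3.10.9. Alternatives were tag minimums of 6 and 10, stricter overlap, position in place of identifier, exonic peaks alone, heights in place of tags, the removal of each replicate and motif searches extended by 50 bases.

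All 9 genes are named whatever their values. Of each related list up to 4 genes with the most tags and peaks in both lists may be named, plus Cbfb, Mitf and Irf4, and genes without a peak. A further gene that the rule names and a stretch of sequence are not reported here. The genes and lists were chosen with earlier results of these data known. Ddit3 and Clec7a were not matched by symbol and were left out.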

Additional observations from a re-analysis of the deposited data

Results flagged for a closer look

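Peaks on the strand opposite to a member, which enter none of the comparisons above, were found in Runx1 and Zeb2 only, by the gene the authors assigned. Runx1 had 5 antisense tags in replicate 1 and 10 in replicate 2, equal to 1.88% and 1.62% of its sense tags. Zeb2 had 15 and 22, equal to 2.03% and 1.51%. One position per gene was in both lists: in Runx1 at 92801185-92801352 with 5 tags and 92801182-92801345 with 6, where sense peaks of 19 and 25 tags lie, and in Zeb2 at 45086484-45086582 with 4 tags and 45086472-45086583 with 6, where no sense peak lies. The input libraries were not analysed here, so these counts were set against no control.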

How the results depend on the processing

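Of 37 alternatives for the main counts and shares, 31 stayed within 1.5 times or within the interval of the value reported. Those with a minimum of 6 tags could not move, since the lowest member peak held 7 tags in replicate 1 and 8 in replicate 2. Leaving out a replicate only counted the members in the other list. The 31 is therefore not a measure of robustness. The number of members with a peak in both lists ranged from 4 (exonic peaks alone) to 7 (by position), and was 6 and 6 when either replicate was left out. Shared positions fell from 5 genes to 3 when 50% of both peaks had to overlap and to 3 when each summit had to lie in the other peak. Bach1, Runx1 and Zeb2 were left each time, since the Fli1 pair overlaps by 45 bases and the Maf peak of replicate 1 covers 37.6% of its longer partner, whose summit lies outside it. Member peaks numbered 9 and 15 when only exonic ones were counted, and 27 and 43 without Zeb2, an alternative chosen after seeing the data. The intronic share ran from 73.1% to 80% in replicate 1 and from 71.6% to 76.9% in replicate 2. With windows extended by 50 bases, 50% and 77.8% of exonic member peaks held GGAC, against 68.9% and 69.5% over all genes. Of 36 alternatives for the tags of single genes, 16 moved by at least the SD of the gene's 2 tag totals. These totals are not corrected for list size, so the SD also holds the difference between the lists. By this measure even the fall of Runx1 in replicate 1 from 266 tags to 30 in exonic peaks alone did not count as moved. No paired analysis was possible because the input libraries were not analysed here and the results come from no test. Without input and total depth, no value is corrected for abundance, and a gene with no peak is only below what the authors' caller listed.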

Other observations

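The weakest listed peak differed between the member genes with many peaks. In Zeb2 the lowest peak held 16 tags in replicate 1 and 26 in replicate 2, in Runx1 11 and 14, and in Fli1 7 and 8. Over all genes with 10 or more peaks the lowest peak held a median of 8 tags in either list, and over genes with 1 peak it held 5 and 6. The lowest peak of any member held 7 tags in replicate 1 and 8 in replicate 2, while 32.5% and 24.3% of all listed peaks had at most 5.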
